A study of Mus musculus with 4 samples.

Results

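The genes described here are the 6 that make, pack or break down the transmitters GABA and glutamate, *Gad1*, *Gad2*, *Slc32a1*, *Abat*, *Slc17a6* and *Slc17a7*. They were chosen by name, and all 6 were found among the 16600 genes of the table. *Gad1* and *Gad2* encode the glutamate decarboxylases that turn glutamate into GABA, *Slc32a1* encodes the transporter that loads GABA into synaptic vesicles (VGAT), and *Abat* encodes the transaminase that breaks GABA down. *Slc17a6* and *Slc17a7* encode the transporters that load glutamate into vesicles (VGLUT2 and VGLUT1). In the forebrain, GABA neurons come from *Dlx*-expressing progenitors of the subpallium, and glutamate neurons come from progenitors of the pallium. Interneurons migrate from the subpallium into the cortex before birth.

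Cells were dissociated from the cortex of C57BL/6J fetuses at E18.5 and sorted for CD24, a surface marker of neurons, and against CD45, a marker of blood cells. The 2 *Setd5*+/+ fetuses were compared with 2 *Setd5*+/- fetuses that carry the *Setd5*GFP allele and so 1 intact copy of this chromatin regulator gene, and each fetus gave 1 single-cell library. The 6562 cells fell into 1445 to 1954 cells per library, with a median of 5398 to 5997 unique molecular identifiers (UMIs, each standing for 1 captured transcript). Libraries are named WT3 and WT6 (*Setd5*+/+) and Het5 and Het9 (*Setd5*+/-).

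The labels were checked first. *Setd5* stood at 1.18 and 1.07 UMIs per 10000 in the *Setd5*+/+ libraries against 0.540 and 0.586 in the *Setd5*+/- libraries. *Xist*, expressed from the inactive X chromosome, was high in WT3 (20.6) and WT6 (21.5) and low in Het5 (0.152) and Het9 (0.310), while the Y-linked gene *Ddx3y* was high in Het5 (0.492) and Het9 (0.465) and stood at 0 and 0.000602 in the other libraries. Sex and genotype therefore cannot be told apart in any comparison of the genotypes below. In each library 56 cells carried a barcode found in all 4 libraries, 224 cells in all, and these were 140 melanocyte-like and 84 immune cell-like cells. Each of the 6 genes had at most 11 UMIs in either of these clusters. The defining CD45 gene *Ptprc* stood at 0.0733 to 0.161 UMIs per 10000 against 12.2 to 14.2 for the CD24 gene *Cd24a*, and 132 immune cell-like and 147 melanocyte-like cells remained in the sorted neuronal cells.

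The sequences just before the starts of these genes are shown because *Gad1*, *Gad2* and *Slc32a1* were found in the same clusters of cells, as described below. They are RefSeq promoter windows of build GRCm38.p6 on the plus strand, from up to 250 bases before a RefSeq start, without bases in an annotated exon. The *Gad1* window lies inside the span of the gene, since the RefSeq start used lies after the first annotated start. Capitals mark CANNTG, the E-box bound by basic helix-loop-helix factors, and TAATT, a homeodomain core, each searched on both strands.
Gad1, chr2:70561879-70562041: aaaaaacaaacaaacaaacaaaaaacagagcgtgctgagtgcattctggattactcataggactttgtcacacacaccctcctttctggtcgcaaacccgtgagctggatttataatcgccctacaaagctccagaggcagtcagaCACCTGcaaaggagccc
Gad2, chr2:22622077-22622204: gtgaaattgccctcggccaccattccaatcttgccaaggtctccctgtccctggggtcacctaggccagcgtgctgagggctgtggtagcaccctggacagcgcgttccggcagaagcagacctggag
Slc32a1, chr2:158610508-158610757: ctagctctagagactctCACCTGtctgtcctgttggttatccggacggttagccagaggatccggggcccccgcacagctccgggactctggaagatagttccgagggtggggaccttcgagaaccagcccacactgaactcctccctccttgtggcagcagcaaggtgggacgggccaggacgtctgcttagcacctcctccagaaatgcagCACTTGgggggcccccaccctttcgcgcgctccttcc
Slc17a6, chr7:51621580-51621829: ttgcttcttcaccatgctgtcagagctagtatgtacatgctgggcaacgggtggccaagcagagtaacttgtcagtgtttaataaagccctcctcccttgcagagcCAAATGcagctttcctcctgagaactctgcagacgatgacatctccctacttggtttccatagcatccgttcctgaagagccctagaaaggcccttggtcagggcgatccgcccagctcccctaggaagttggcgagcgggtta
Slc17a6, second start, chr7:51624387-51624636: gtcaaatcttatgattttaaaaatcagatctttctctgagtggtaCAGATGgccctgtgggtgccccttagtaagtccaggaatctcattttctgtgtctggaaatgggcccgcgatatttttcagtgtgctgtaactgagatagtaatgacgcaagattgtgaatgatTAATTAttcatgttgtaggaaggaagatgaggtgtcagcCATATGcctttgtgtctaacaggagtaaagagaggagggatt
Slc17a7, chr7:45163671-45163920: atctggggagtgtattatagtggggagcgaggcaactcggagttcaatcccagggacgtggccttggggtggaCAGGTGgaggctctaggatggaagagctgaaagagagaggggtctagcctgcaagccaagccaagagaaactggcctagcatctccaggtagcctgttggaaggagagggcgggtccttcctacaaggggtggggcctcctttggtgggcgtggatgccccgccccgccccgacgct

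In the 250-base windows CANNTG was found in 66.2% and TAATT in 25% of 32851 promoters. *Slc32a1* held 2 matches to CANNTG, *Slc17a7* held 1, and the windows of *Slc17a6* held 1 and 2. The *Gad1* window of 163 bases held 1 match to CANNTG, which 52.1% of promoters held in the same window. The *Gad2* window of 128 bases held none, where 43.9% of promoters held a match. TAATT was found only in the second window of *Slc17a6*, as 2 overlapping matches on opposite strands. *Abat* is named only.

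On GRCm38, *Gad1* lies on the plus strand at chr2:70553072-70602014, *Gad2* at chr2:22622205-22693874 and *Slc32a1* at chr2:158610767-158615748. *Abat* lies at chr16:8513429-8621568, *Slc17a6* at chr7:51622006-51671119 and *Slc17a7* at chr7:45163949-45176142, each on the plus strand. *Gad1* overlaps the antisense gene *Gad1os* and *Slc32a1* the antisense gene *Gm14205*. The use of strand in the counting is not given in the sources used here, so reads of these antisense partners may not be separated from those of *Gad1* and *Slc32a1*.

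The first question was which cells contained these transcripts. Cells were clustered without the 6 genes, which gave 14 clusters, and levels are the mean UMIs per 10000 UMIs of the cell, averaged over 4 libraries (± SD). *Gad1*, *Gad2* and *Slc32a1* were high in 4 clusters in which *Slc17a6* and *Slc17a7* were at or near 0, and *Slc17a6* was high in clusters of the pallial lineage. The 4 were a subpallial progenitor-like cluster (393 cells, with *Gsx1*), a cycling cluster in which 97.9% of cells were assigned to the *Dlx* lineage described below (724 cells), a migrating interneuron-like cluster (583 cells, with *Lhx6* and *Npy*) and a striatal neuron-like cluster (372 cells, with *Ebf1* and *Isl1*).

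*Gad1* was highest in the migrating interneuron-like cluster at 1.56 ± 0.342, followed by the striatal neuron-like cluster at 0.978 ± 0.149. It stood at 0.426 ± 0.153 in the cycling cluster and at 0.158 ± 0.0212 in the progenitor-like cluster. No neighbours in this order overlapped over the 4 libraries.

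*Gad2* had the opposite order at the top, with 5.57 ± 0.306 in the striatal neuron-like cluster and 3.0 ± 0.181 in the migrating interneuron-like cluster. It stood at 1.64 ± 0.192 in the cycling cluster and 0.827 ± 0.138 in the progenitor-like cluster, again with no overlap between neighbours. *Gad2* was thus found in 50.7% of the cycling cells and in 30.5% of the progenitor-like cells, at median depths of 7021.5 and 5664 UMIs. It was also found in 3.96% of the excitatory neuron-like cells, a type that should lack it, and in 0.680% of the melanocyte-like cells, at median depths of 5480 and 5362 UMIs.

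The balance of the 2 decarboxylase genes differed between the neuron clusters. *Gad2* gave 68.0%, 73.0%, 61.8% and 65.1% of the *Gad* UMIs in migrating interneuron-like cells of WT3, WT6, Het5 and Het9. In striatal neuron-like cells it gave 86.1%, 86.3%, 84.4% and 82.9%. The ranges did not overlap, and the share in every library was higher in the striatal neuron-like cells. The cycling cluster (80.9% of 939 UMIs, exact 95% interval 78.3 to 83.4) and the progenitor-like cluster (83.2% of 214 UMIs, 77.5 to 87.9) lay closer to the striatal neuron-like cells (85.1% of 851 UMIs, 82.5 to 87.4) than to the interneuron-like cells (68.4% of 1033 UMIs, 65.5 to 71.3). These intervals and those below cover counting error only, and the shares compare clusters and are not a ratio of molecules, since capture may differ between the 2 transcripts.

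*Slc32a1* did not separate the 2 neuron clusters, with 1.05 ± 0.222 in the striatal neuron-like and 1.01 ± 0.0470 in the migrating interneuron-like cluster and overlapping ranges. It stood at 0.498 ± 0.0313 in the cycling cluster and 0.230 ± 0.0519 in the progenitor-like cluster. *Slc32a1* was found in 24.7% of the cycling cells, at most 1.33% of any pallial cluster and 4.55% of the immune cell-like cells, whose median depth was 1939 UMIs.

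*Abat* was not limited to GABA neurons. It was highest in the migrating interneuron-like cluster at 0.433 ± 0.195, which overlapped the striatal neuron-like cluster at 0.323 ± 0.0524. The radial glia-like cells, of which 39.7% were assigned to the pallial lineage and 6.46% to the *Dlx* lineage, had 0.229 ± 0.0479, the Cajal-Retzius-like cells 0.222 ± 0.127 and the cycling cluster 0.200 ± 0.0123, with overlapping ranges. Excitatory neuron-like cells had 0.0318 ± 0.0139, and no UMI was found in the immune cell-like cells.

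*Slc17a6* was highest in the 35 Cajal-Retzius-like cells, an early-born glutamate neuron type of the cortical surface, at 2.28 ± 0.544. The young migrating excitatory neuron-like cells followed at 1.31 ± 0.186, and a cluster left unnamed that expressed *Tac2* and *Nhlh2* (cluster 6) had 0.841 ± 0.0733. These 3 did not overlap. The intermediate progenitor-like cells, which express *Eomes* and *Neurog2*, already had 0.682 ± 0.0958, overlapping the excitatory neuron-like cells at 0.507 ± 0.117 and above the radial glia-like cells at 0.00692 ± 0.00469. *Slc17a6* was found in 0.269% to 1.20% of the cells of the 4 *Dlx* clusters.

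*Slc17a7* was rare, with 158 UMIs in the whole table. It was highest in cluster 6 at 0.184 ± 0.0355, followed by the excitatory neuron-like cluster at 0.0917 ± 0.0103 and the young migrating excitatory neuron-like cluster at 0.0481 ± 0.0297, of which the last 2 overlapped. It was absent from the Cajal-Retzius-like cells in which *Slc17a6* peaked, and 35 cells allow only a weak limit. Of the 4 *Dlx* clusters, the striatal neuron-like one had 1 UMI of *Slc17a7* in 372 cells, and the other 3 had 0 of 1700 cells with a UMI, which allows up to 0.176% of cells with a UMI. At so few UMIs this does not limit the share of cells that express the gene.

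**Figure D1:**
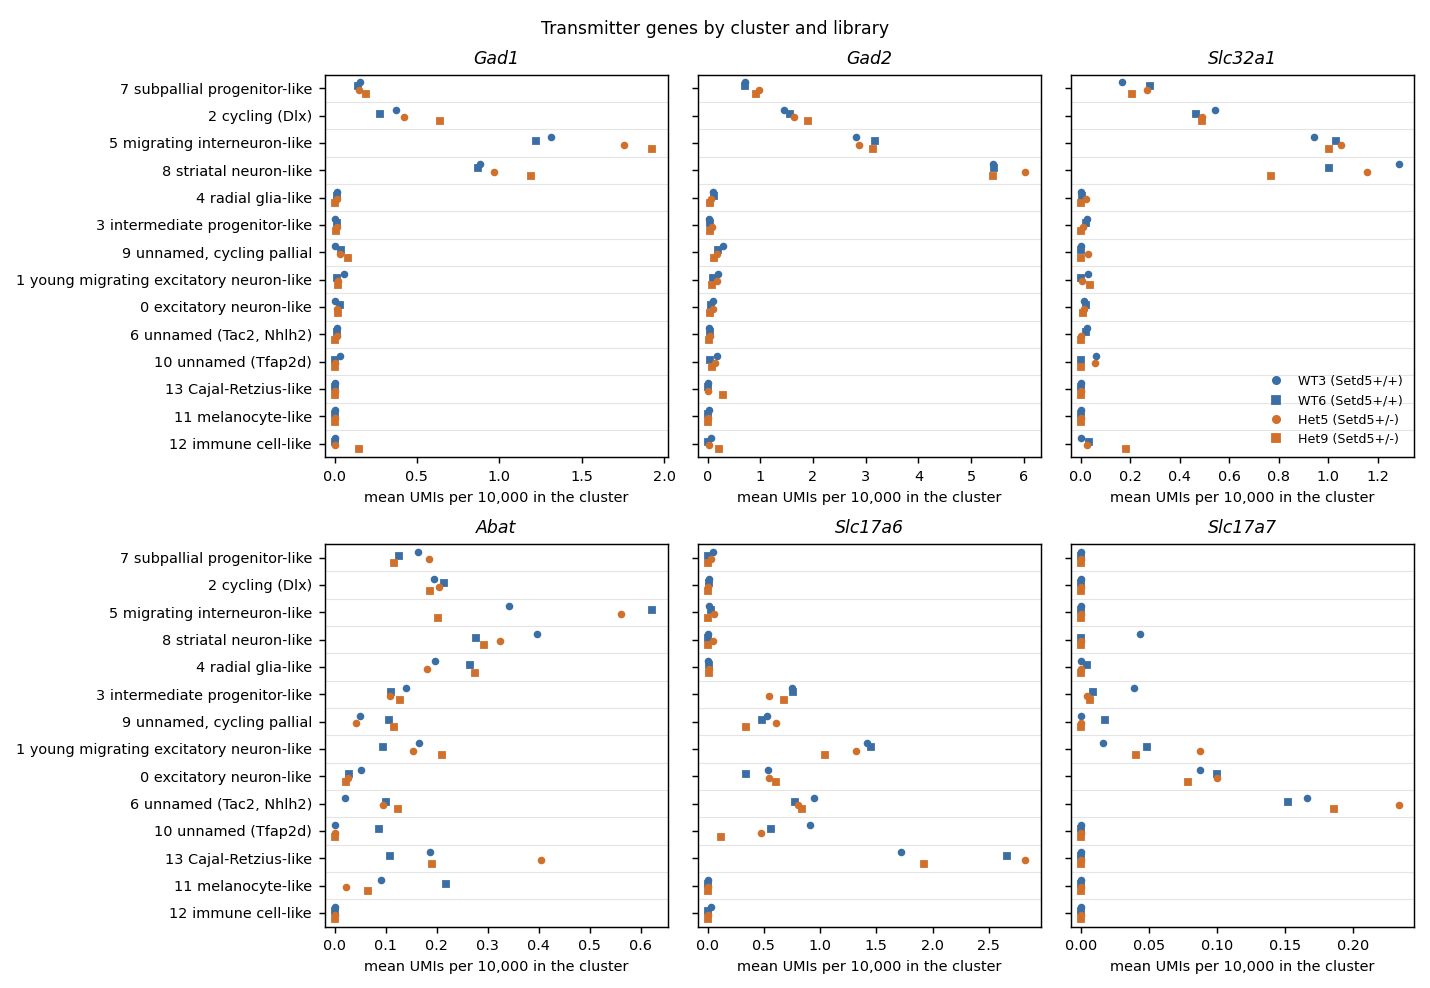
Mean UMIs per 10000 of each gene (x axis, own scale per panel) in each of the 14 clusters (y axis), with 1 point per library, blue for *Setd5*+/+ and orange for *Setd5*+/-. *Gad1*, *Gad2* and *Slc32a1* rise together in the top 4 rows, *Gad1* is highest in cluster 5 and *Gad2* in cluster 8, and *Slc17a6* peaks in cluster 13 while *Slc17a7* peaks in cluster 6.

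The genes whose levels over the 14 clusters were most like each member were named as a description over 8143 genes, with Pearson correlations of the log2 means. *Gad1* was nearest to *Slc32a1* (0.98), *Grik3* (0.97), a kainate receptor gene, and *Gad2* (0.97). *Gad2* was nearest to *Grik3* (0.98), *Slc32a1* (0.98) and *Gad1* (0.97). *Slc17a6* was nearest to *Kcnb2* (0.97), a potassium channel gene, *Clvs1* (0.96) and *Nrn1* (0.96), and *Slc17a7* to *Cldn3* (0.95), *Stard3* (0.85) and *Luzp2* (0.84). *Abat* was nearest to *Tmem234* (0.86), *Rfx7* (0.85) and *Blmh* (0.84). The clusters share libraries and differ in depth.

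The second question was in which order the genes appear from progenitors to neurons. Cells were assigned to a *Dlx* lineage (2019 cells) or a pallial lineage (3835 cells) by 8 genes each (such as *Dlx1*, *Dlx2* and *Gsx2*, or *Emx1*, *Eomes* and *Neurod6*), and 708 cells to neither. Within a lineage they were ordered by the log2 ratio of UMIs of 19 neuron genes to UMIs of 17 progenitor genes and divided into 5 bins of equal size, and none of the 6 genes was used for either step. The progenitor genes include cell cycle genes such as *Mki67*, so the ordering itself places cycling cells in the early bins. The range of a gene over the 4 libraries was then compared between bins.

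In the *Dlx* lineage, *Gad2* was already found in 29.0% of cells of bin 1 (27.1% to 29.9% over libraries), of which 86.1% were cycling. Its mean level rose from 0.622 ± 0.0637 in bin 1 through 1.47, 2.33 and 4.0 to 3.92 ± 0.0764 in bin 5, a 6.31-fold difference. *Gad1* rose from 0.0860 ± 0.0490 through 0.341, 0.754 and 1.44 to 1.30 ± 0.161, a 15.1-fold difference, and was found in 5.20% of cells of bin 1 (3.15% to 9.28% over libraries). The median depth fell from 7423 UMIs in bin 1 to 3974 in bin 5, so a larger share of cells with a UMI in later bins went against depth.

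*Slc32a1* had a different course, with 0.216 ± 0.0433 in bin 1, 0.552 ± 0.0655 in bin 2, 0.534 ± 0.118 in bin 3, 1.0 ± 0.173 in bin 4 and 1.05 ± 0.0527 in bin 5. It thus reached 52.5% of its largest bin in bin 2 and stood at 50.8% in bin 3, where *Gad1* went from 23.7% to 52.4% and *Gad2* from 36.7% to 58.3%. *Abat* stayed between 0.160 and 0.290 in bins 1 to 4 and stood at 0.529 ± 0.0974 in bin 5. *Gad1*, *Gad2*, *Slc32a1* and *Abat* were each higher in bin 5 than in bin 1 with no overlap of the libraries, as were 21.8% of the 7773 genes tested, and 21.5% were lower with no overlap. *Slc17a6* and *Slc17a7* were below the minimum mean of 0.1 in this lineage and were not tested there.

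The balance of the decarboxylase genes differed between the first and last bins. *Gad2* gave 89.5% of the *Gad* UMIs in bin 1, 81.5% in bin 2, 76.3% in bin 3, 74.9% in bin 4 and 76.3% in bin 5, pooled over libraries. In bin 1, which had 22 *Gad1* UMIs in all, the share was 79.6%, 93.9%, 93.8% and 86.7% in WT3, WT6, Het5 and Het9. In bin 5 it was 76.6%, 77.9%, 70.8% and 75.6%, so bins 1 and 5 did not overlap, while bin 2 (75% to 85.5%) overlapped bin 1 and was the higher of the 2 in WT3. Cells with a *Gad1* and a *Gad2* UMI went from 2.72% of cells in bin 1 to 23.8% in bin 5, and cells with none of *Gad1*, *Gad2* and *Slc32a1* from 63.1% to 14.5%. Of the cells with *Slc32a1*, 53.2% of 47 in bin 1 and 85.0% of 133 in bin 5 also had a *Gad1* or *Gad2* UMI. The cells changed cluster along the bins, with 69.6% of bin 1 in the cycling cluster and 65.1% and 33.9% of bin 5 in the interneuron-like and striatal neuron-like clusters, and the part of this makeup in the levels was not tested.

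Per library, the position on the scale of bins at which a gene reached 50% of its own largest bin was compared between genes with an exact two-sided sign-flip permutation test. With 4 libraries the smallest p is 0.13, so no difference could pass 0.05. *Slc32a1* reached this point at 1.94, 2.50, 2.14 and 1.86 in WT3, WT6, Het5 and Het9, *Gad1* at 2.75, 3.02, 2.81 and 3.10, and *Gad2* at 2.66, 3.11, 2.58 and 2.54. *Slc32a1* came before *Gad1* by 0.81 bins (SE 0.155) and before *Gad2* by 0.61 bins (SE 0.0612), in 4 of 4 libraries each (exact permutation p = 0.13, adjusted over 4 pairs p = 0.167). The position is relative to the largest bin of each gene, and *Slc32a1* lay close to the 50% mark in both bin 2 (52.5%) and bin 3 (50.8%). It does not give the gene found first, since bin 1 had *Slc32a1* in 11.6% of cells, *Gad2* in 29.0% and *Gad1* in 5.20%. *Gad1* came after *Gad2* by 0.20 bins (SE 0.136) in 3 of 4 libraries (exact permutation p = 0.25). At 75% of the largest bin *Slc32a1* no longer came before *Gad1* or *Gad2* on average, with differences of 0.15 and 0.15 bins after them, and with 10 bins *Gad1* came before *Gad2* by 0.11 bins. With 10 bins *Slc32a1* came before *Gad1* by 0.32 bins (SE 0.349) and before *Gad2* by 0.44 bins (SE 0.503), in 3 of 4 libraries each. In the percent of thinned cells with a UMI, *Slc32a1* came before *Gad2* by 0.13 bins, in 2 of 4 libraries. *Gad1* came after *Gad2* in 4 of 4 libraries at 25% of the largest bin (0.54 bins), after thinning (0.57 bins) and in the percent of thinned cells with a UMI (1.02 bins).

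In cells of the *Dlx* lineage with at least 2 UMIs of cell cycle genes (957 cells), *Gad2* was found in 47.2%, 45.9%, 53.3% and 53.8% of cells in WT3, WT6, Het5 and Het9. In the 1062 other cells it was found in 59.9%, 60.7%, 51.0% and 59.3%. The median depth was 6671 UMIs in cycling and 4197 in other cells, and after thinning every cell to 3000 UMIs the shares over all libraries were 32.9% and 47.7%. Pooled over the cells of all libraries, the mean level of *Gad2* was 1.60 in cycling and 3.25 in other cells, and that of *Gad1* was 0.374 and 1.10. In cycling cells of the pallial lineage, which should lack it, *Gad2* was found in 7.67% of 417 cells at a median depth of 7190 UMIs.

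In the pallial lineage, *Slc17a6* rose and then fell. It had 0.215 ± 0.0129 in bin 1, 1.12 ± 0.0912 in bin 2, 1.12 ± 0.154 in bin 3, 0.683 ± 0.118 in bin 4 and 0.475 ± 0.0707 in bin 5. The lowest library of bin 2 stood at 1.02 and the highest of bin 5 at 0.522, so the bins did not overlap and bin 5 held 42.2% of the largest bin. Of 7908 genes tested, 17.5% were higher and 16.1% lower in bin 2 than in bin 1 with no overlap, *Slc17a6* among the higher ones, and 18.1% were higher and 16.0% lower in bin 5 than in bin 2, *Slc17a6* among the lower ones.

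The bins differed in their clusters, and *Slc17a6* was followed within the 2 largest ones. Young migrating excitatory neuron-like cells made up 38.2% of bin 2 and 8.52% of bin 5, and excitatory neuron-like cells 72.6% of bin 5. In the young migrating excitatory neuron-like cells *Slc17a6* had 1.32 ± 0.161 in bin 2, 1.43 ± 0.292 in bin 3 and 1.24 ± 0.335 in bin 4, with overlapping ranges. In the excitatory neuron-like cells it had 0.690 ± 0.137 in bin 3, 0.493 ± 0.119 in bin 4 and 0.435 ± 0.133 in bin 5. It was lower in each successive bin in 4 of 4 libraries. Bins 3 and 5 were only just apart, with 0.571 the lowest of bin 3 and 0.570 the highest of bin 5. The share of all genes that were apart between these bins within the cluster was not counted. Across the whole lineage the lower level of bin 5 went both with this lower level within the excitatory neuron-like cells and with fewer cells of the young migrating cluster, and the part of each was not tested.

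*Slc17a7* did not fall with *Slc17a6*. It had 0.00683 ± 0.00822 in bin 1, 0.0659 ± 0.0320 in bin 2, 0.0734 ± 0.0215 in bin 3, 0.0893 ± 0.0250 in bin 4 and 0.0845 ± 0.0294 in bin 5, with overlapping ranges in bins 2 to 5. It reached 50% of its largest bin after *Slc17a6* by 0.43, 2.17, 0.13 and 0.55 bins in WT3, WT6, Het5 and Het9, a mean of 0.82 (SE 0.459, exact permutation p = 0.13, adjusted p = 0.167), and WT6 set much of this mean, which was 0.37 without it. *Abat* was highest in bin 2 at 0.136 ± 0.0437 and stood at 0.0421 ± 0.0206 in bin 5, with no overlap. *Slc17a7* and *Abat* were below the minimum mean in this lineage and were not among the genes tested. *Gad2* showed no course in pallial cells, at 0.0747 to 0.0962 in all 5 bins.

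**Figure D2:**
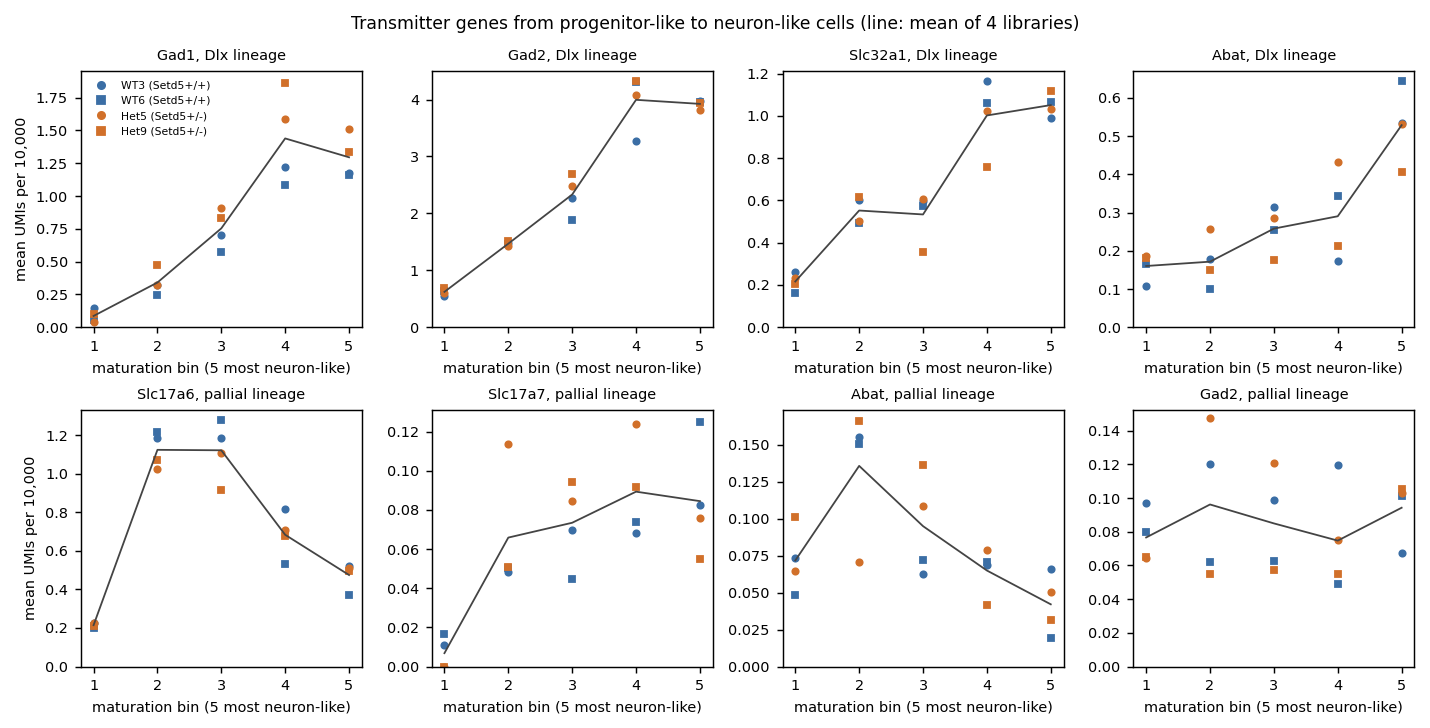
Mean UMIs per 10000 (y axis, from 0, own scale per panel) in 5 bins from progenitor-like to neuron-like cells (x axis) of the *Dlx* lineage (top) and the pallial lineage (bottom), with 1 point per library and a line through the means of 4 libraries. *Slc32a1* is level between bins 2 and 3 while *Gad1* and *Gad2* climb, and *Slc17a6* falls from 1.12 in bins 2 and 3 to 0.475 in bin 5 while *Slc17a7* does not.

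Other genes of the pathways were taken from 2 lists, 22 genes of synthesis, uptake and precursor supply and 19 genes of GABA receptors, of which 21 and 16 were in the table. In the *Dlx* lineage 4 of 4 receptor genes tested were higher in bin 5 than in bin 1 with no overlap (median log2 difference 1.59, against 0.06 over all genes), as were 21.8% of all genes tested. *Gabbr1*, a subunit of the GABA-B receptor, went from 0.362 to 1.42 UMIs per 10000, and *Gabra2*, a subunit of the GABA-A receptor, from 0.0276 to 0.251. In the pallial lineage 2 of the 4 were higher in bin 2 than in bin 1 with no overlap (17.5% of all genes), and 4 of 4 were higher in bin 5 than in bin 2 (18.1% of all genes; median 1.03, against 0.02), where *Gabra2* went from 0.237 to 0.821 while *Slc17a6* fell. *Gabra2* was highest in cluster 6 at 1.77 ± 0.233, the cluster in which *Slc17a7* was highest.

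Of the 10 synthesis and uptake genes tested in the *Dlx* lineage, 3 were higher and 2 lower in bin 5 than in bin 1 with no overlap (median 0.17), near the 21.8% and 21.5% of all genes. From bin 1 to bin 5 of the *Dlx* lineage, *Slc38a1*, which takes up glutamine, went from 0.844 to 1.45, and *Slc38a2*, of the same family, from 1.06 to 1.15 with overlap. *Slc1a3*, the glutamate transporter of radial glia and astrocytes, went from 1.40 to 0.0170 over the same bins and was highest in the radial glia-like cells at 6.11 ± 0.675. In the pallial lineage 3 of 10 were higher and 2 lower in bin 2 than in bin 1, against 17.5% and 16.1% of all genes, and 2 higher and 3 lower in bin 5 than in bin 2, against 18.1% and 16.0%.

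The third question was whether cells held both transmitter programs. A cell was counted for the GABA program with at least 1 UMI of *Gad1*, *Gad2* or *Slc32a1* and for the glutamate program with at least 1 UMI of *Slc17a6* or *Slc17a7*. The GABA program alone was found in 1595 cells, the glutamate program alone in 1144 and both in 86 of 6562 cells (1.31%, exact 95% interval 1.05 to 1.62), and 3737 cells had neither. The 86 cells were 28, 20, 25 and 13 in WT3, WT6, Het5 and Het9.

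Of the 86 cells 75 were of the pallial lineage and 10 of the *Dlx* lineage. Exactly 1 UMI of each program was found in 44 of them, 8 had at least 2 of each and 0 had at least 5 of each. Of these 8 cells 7 were pallial, and *Slc17a6* was found in 8 of 8 and *Gad2* in 7. Young migrating excitatory neuron-like cells, in which *Slc17a6* was high, held 35 of the 86 cells and 6 of the 8. Doublets were called by Scrublet in 5.81% of the 86 cells, against 1.07% of cells with the GABA program alone and 0.524% of those with the glutamate program alone. At least 2 UMIs of the lineage genes of both lineages were found in 20 of the 86 cells. The same held for 85 of the 1595 cells with the GABA program alone and 24 of the 1144 with the glutamate program alone.

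In the pallial lineage, GABA genes were found in 6.18% of the 1214 cells with *Slc17a6* or *Slc17a7* (exact 95% interval 4.89 to 7.68) and in 5.30% of the 2621 cells without (4.48 to 6.23). By library the shares with and without were 8.04% and 3.56% in WT3, 5.75% and 5.69% in WT6, 6.48% and 6.79% in Het5, and 4.47% and 4.71% in Het9. The difference was above 0 in 2 of 4 libraries, with a mean of 0.999 percentage points (SD 2.33, exact permutation p = 0.875), and in cells thinned to 3000 UMIs it was 1.26 points (SD 1.19, 3 of 4 libraries, exact permutation p = 0.25). In the *Dlx* lineage, glutamate genes were found in 0.719% of 1391 cells with *Gad1*, *Gad2* or *Slc32a1* and in 0.796% of 628 cells without. With 4 libraries this test could not pass 0.05. The largest difference was that of WT3, at 4.48 points, with exact intervals of 5.17 to 11.8 and 2.19 to 5.44. These intervals cover counting error only. They overlapped between 5.17 and 5.44, which is not a test of the difference.

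The GABA genes were also set against each other over the pooled *Dlx* lineage. In cells thinned to 3000 UMIs, *Gad2* was found in 53.1% of the 275 cells with *Gad1* and in 37.7% of the 1537 cells without, and in 53.6% of the 289 cells with *Slc32a1* and 37.5% of those without. All bins are pooled in these shares, and *Gad1*, *Gad2* and *Slc32a1* were each more frequent in later bins. Within bin 5, *Gad1* was found in 34.4% of cells, *Gad2* in 70.0% and both in 23.8%. No test was made over cells, which are not replicates.

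**Figure D3:**
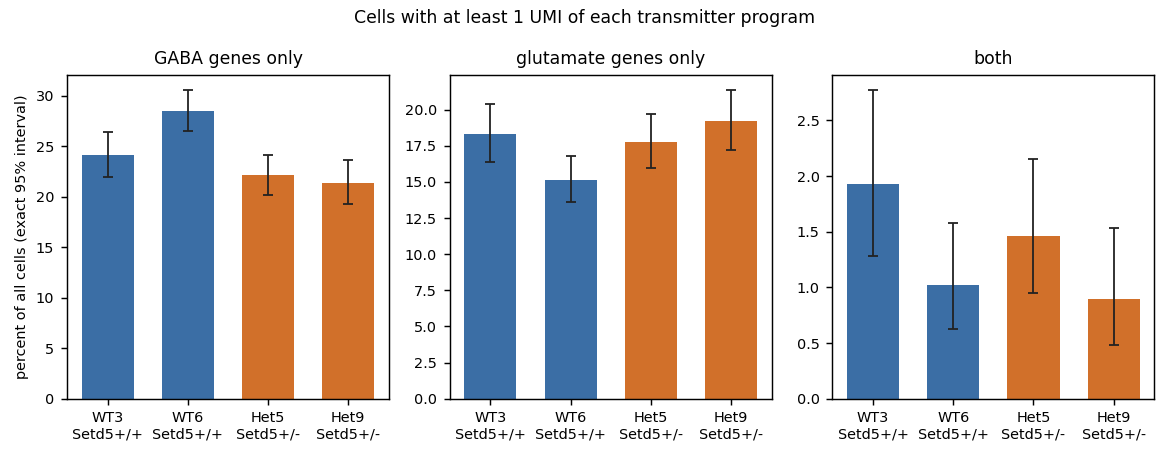
Percent of all cells of a library (y axis, from 0, own scale per panel) with at least 1 UMI of the GABA genes only, of the glutamate genes only, or of both, with exact 95% intervals for counting error, in blue for *Setd5*+/+ and orange for *Setd5*+/-. The GABA-only shares are 24.2% and 28.5% in *Setd5*+/+ and 22.1% and 21.4% in *Setd5*+/-, and cells with both are between 0.900% and 1.93%.

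The last question was whether the genotypes differed. Cells with the GABA program alone made up 24.2% of WT3, 28.5% of WT6, 22.1% of Het5 and 21.4% of Het9, so both *Setd5*+/- libraries were below both *Setd5*+/+ libraries, by 4.59 percentage points on average (exact permutation p = 0.333, the smallest that 2 against 2 libraries allow). Without WT6 the difference was -2.41 points. The lower share went with the number of cells of the *Dlx* lineage, which made up 32.3% of WT3, 36.4% of WT6, 27.4% of Het5 and 25.5% of Het9 (exact permutation p = 0.333). Cells with the glutamate program alone made up 18.3%, 15.1%, 17.8% and 19.2%, with overlap and a difference of 1.78 points (exact permutation p = 0.667), or 0.201 points without WT6. Cells with both programs made up 1.93%, 1.02%, 1.46% and 0.900%, a difference of -0.29 points (exact permutation p = 0.667), which was 0.157 without WT3 and 0.0023 with at least 2 UMIs of a program.

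Across all cells, 0 of the 5 members tested passed limma's test with Benjamini-Hochberg adjustment over 8137 genes, of which 0.086% passed. At an unadjusted p under 0.05 there were 353 genes, among them *Gad2* and *Slc32a1*. *Slc32a1* stood at 0.244, 0.286, 0.190 and 0.174 UMIs per 10000 in WT3, WT6, Het5 and Het9, a log2 difference of -0.37 (SE 0.0906, adjusted p = 0.708 by limma). *Gad2* stood at 0.824, 1.10, 0.700 and 0.790, a log2 difference of -0.32 (SE 0.122, adjusted p = 0.994 by limma), and of -0.13 without WT6. Both were lower in both *Setd5*+/- libraries without overlap, as were, in either direction, 32% of genes. *Gad1* (-0.04), *Abat* (-0.18) and *Slc17a6* (0.04) overlapped, and *Slc17a7* was below the minimum mean and not tested, at 0.0357, 0.0304, 0.0478 and 0.0388, higher in both *Setd5*+/- libraries. In a mean over all cells, fewer cells of a type and a lower level per cell cannot be told apart.

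Within *Dlx*-lineage cells, 0 of the 4 members tested passed limma's adjusted threshold, as did 0.0901% of 7773 genes, and 318 genes had an unadjusted p under 0.05, none of them a member. *Gad2* had 2.24, 2.65, 2.21 and 2.76 in WT3, WT6, Het5 and Het9, with overlap and a log2 difference of 0.02 (95% interval -0.26 to 0.30). *Slc32a1* had 0.706, 0.719, 0.616 and 0.607, a log2 difference of -0.19 (-0.45 to 0.06, adjusted p = 0.999 by limma), and *Gad1* had 0.688, 0.687, 0.749 and 0.981, a log2 difference of 0.28 (-0.02 to 0.59, adjusted p = 0.999 by limma), which was 0.11 without Het9 and 0.46 without Het5. These 2 did not overlap between genotypes and lay in opposite directions, and 31.9% of genes did not overlap. *Abat* overlapped at 0.257, 0.336, 0.312 and 0.221 (log2 difference -0.12).

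Within pallial-lineage cells, *Slc17a6* was the single member above the minimum mean. It stood at 0.805, 0.729, 0.701 and 0.680, lower in both *Setd5*+/- libraries, with a log2 difference of -0.13 (-0.32 to 0.05, adjusted p = 0.998 by limma), which was -0.07 without WT3. Of 7908 genes 0.0759% passed the test and 31.4% did not overlap, and 237 had an unadjusted p under 0.05. *Slc17a7* stood at 0.0579, 0.0595, 0.0772 and 0.0605, again higher in both *Setd5*+/- libraries, and was not tested. Of the 2 pathway lists no gene passed limma's test in any of the 3 sets of cells, with 11 and 4 genes tested over all cells, 10 and 4 in the *Dlx* lineage and 10 and 4 in the pallial lineage. Their median log2 differences were 0.00 and -0.03 over all cells, -0.01 and 0.02 in the *Dlx* lineage and 0.03 and -0.04 in the pallial lineage, against 0.00 over all genes in each.

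**Figure D4:**
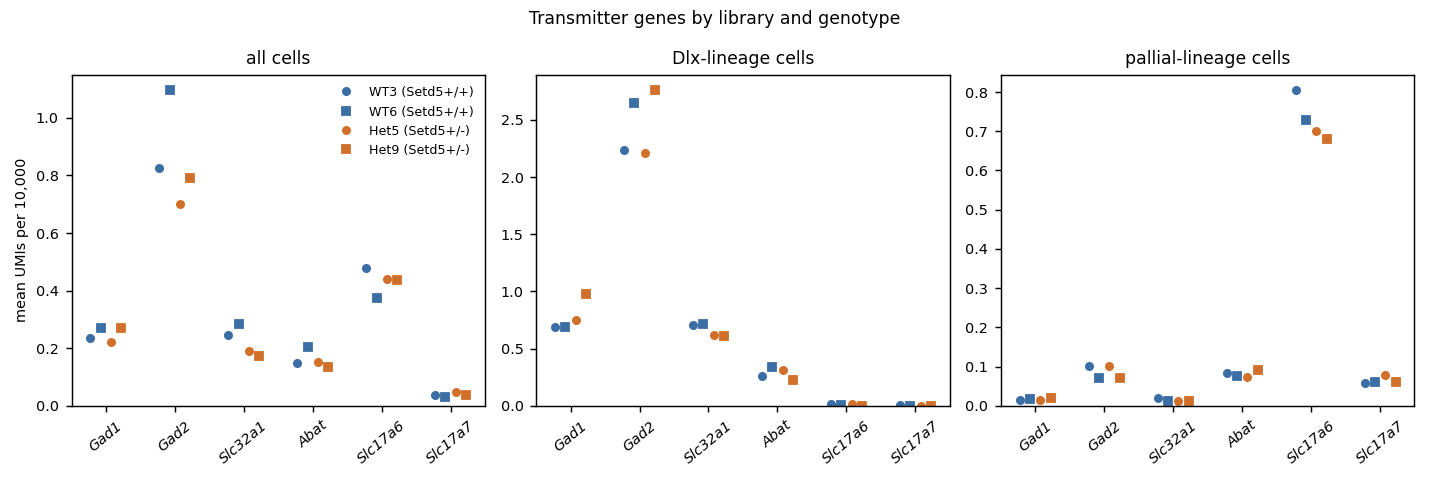
Mean UMIs per 10000 (y axis, from 0) of the 6 genes in each library, in all cells, *Dlx*-lineage cells and pallial-lineage cells, in blue for *Setd5*+/+ and orange for *Setd5*+/-. None of the genes tested (5, 4 and 1 of the 6 in the 3 sets of cells) passed limma's test. Over all cells *Gad2* stands at 0.824 and 1.10 in *Setd5*+/+ and at 0.700 and 0.790 in *Setd5*+/-, and within the *Dlx* lineage its libraries overlap.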

How the data were processed

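Single-cell RNA-Seq of CD24+ CD45- cells of the E18.5 cortex was analysed (2 *Setd5*+/+ and 2 *Setd5*+/- fetuses, 1 library each, made with a 10x Genomics 3′ kit). The authors deposited 1 table of natural log values, in which each is ln(1 + x) and x is the count of a gene scaled to 10000 UMIs in its cell. Seurat 2.3.0, Cell Ranger 2.1 and mm10 (GRCm38) are listed in the processing notes of the submitters. Not given in the sources used here are the annotation, whether counting used strand, and how cells were filtered. Whole UMIs were recovered for 100% of 14848520 values above 0 (tolerance 0.001), from cells with 1258 to 14996 UMIs. The table holds fewer cells per library than the approximate number on the labels, and no cell was removed. Libraries held 8205330 to 11742956 UMIs.

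Cell prefixes give the genotype and not the replicate number of the labels. Members and lists were chosen with earlier results of these data known. Cells were clustered (2000 variable genes, 20 principal components, 20 neighbors, Leiden at resolution 0.4) in scanpy 1.11.5, without the members, the pathway lists and *Setd5*, and clusters were named from marker lists as rebuilt names, not the study's. Values thinned to 3000 UMIs leave out 526 shallower cells. Scrublet marked 44 cells (0.671%) as doublets, which were kept. Lineages needed at least 2 UMIs of the lineage genes and more than of the other lineage. The pallial bin limits lay within 0.1 of the score of 40 to 170 cells.

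Genotypes were compared over libraries, never cells, with limma 3.58.1 in R 4.3.3 (variance trend) on log2(mean counts per 10000 + 0.1), which understates changes of low genes, for genes with a mean of at least 0.1, and called at 0.05 after Benjamini-Hochberg adjustment. Bin positions and shares of cells were compared with exact permutation tests. The p-values of limma rest on the spread between the 2 libraries of a genotype, moderated over the genes tested. Those of bin positions, and of GABA genes in cells with and without glutamate genes, come from changing signs of differences within the 4 libraries. Those of shares of cells by genotype come from exchanging libraries between the genotypes. With counts simulated for 7661 genes at the depth of the *Dlx* lineage, 89.9% of the 99 genes set to differ by 1 on the log2 scale were called, and 17.8% of the 90 set to differ by 0.5. These shares are over genes of all levels and are not those of the members, and 4 calls were false. The named genes were the members, *Setd5*, sex genes, gate, score and marker genes, the 3 genes most like each member, and of each pathway list the called and the 3 most abundant genes. Some genes that the rule names are not reported here. Alternatives were other pseudocounts, filters, bins, thresholds and depths, summed UMIs, removal of doublets and of shared barcodes, and each library left out.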

Additional observations from a re-analysis of the deposited data

How the results depend on the processing

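No paired analysis was possible because the cell prefixes carry no replicate numbers of the labels. Of 227 alternatives over 23 results, 207 were counted as the same as the main result. For log2 differences this meant the same direction and side of the threshold. For bin positions and shares of cells it meant the same direction only, since their exact tests could not pass the threshold. For numbers of genes called it meant a similar number, such as 6 (pseudocount 1) or 8 (no filter) against 7 over all cells. With all libraries kept, none of the 3 counts of members called by limma, all 0, changed.

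Of the 4 pairs of positions, 3 changed direction under an alternative. *Gad1* minus *Gad2* was -0.11 bins with 10 bins and -0.0028 at 75% of the largest bin, and at 75% *Slc32a1* minus *Gad1* was 0.15 and *Slc32a1* minus *Gad2* was 0.15. With 10 bins, *Slc32a1* came before *Gad1* and *Gad2* in 3 of 4 libraries, and in the percent of thinned cells with a UMI before *Gad2* in 2 of 4 (-0.13 bins). *Gad1* minus *Gad2* was larger than 0.20 at 25% (0.54), thinned (0.57) and in the percent of thinned cells (1.02). *Slc17a7* came after *Slc17a6* in 4 of 4 libraries under each alternative of bins, threshold, depth and doublets. The mean difference went from 0.28 bins at 25% of the largest bin to 1.10 bins at 75%. With a library left out, the positions ranged from 0.08 to 0.29 (*Gad1* minus *Gad2*), -0.90 to -0.66 (*Slc32a1* minus *Gad1*), -0.67 to -0.58 (*Slc32a1* minus *Gad2*) and 0.37 to 1.05 (*Slc17a7* minus *Slc17a6*), the lowest of the last without WT6.

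The difference in cells with both programs, -0.29 percentage points, was 0.0023 with at least 2 UMIs of a program and 0.0316 with at least 2 UMIs in cells thinned to 3000 UMIs, an alternative chosen after seeing the data, and ranged from -0.746 to 0.157 with a library left out, above 0 without WT3. The GABA-only difference ranged from -6.76 to -2.41, smallest without WT6, and the glutamate-only difference from 0.201 to 3.36, smallest without WT6. The causes were not tested.

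With a library left out, when the lone sample of a genotype is assumed to vary like the other, log2 differences over all cells ranged from -0.14 to 0.071 for *Gad1*, -0.51 to -0.13 for *Gad2*, -0.45 to -0.29 for *Slc32a1*, -0.32 to -0.04 for *Abat* and -0.10 to 0.18 for *Slc17a6*. In the *Dlx* lineage they ranged from 0.11 to 0.46 for *Gad1*, -0.13 to 0.17 for *Gad2*, -0.20 to -0.18 for *Slc32a1* and -0.30 to 0.061 for *Abat*, and in the pallial lineage from -0.20 to -0.07 for *Slc17a6*. Genes called, 7 over all cells, were 13 without WT3 and 41 without Het5, and, 7 in the *Dlx* lineage, were 23, 21, 34 and 19 without WT3, WT6, Het5 and Het9.

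Depth limits *Slc17a7* most, with 158 UMIs in all, and the 2 libraries per genotype limit the comparison of genotypes.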
